A study of Mus musculus with 4 samples.

Results

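Notch receptors, the ligand Jag1 and target genes of the pathway were followed in smooth muscle cells and fibroblasts of the mouse ascending aorta. The 8 genes are the receptors Notch1, Notch2 and Notch3, the ligand Jag1 and the targets Heyl, Hey1, Hey2 and Hes1. They were taken as a named list of pathway components, with no threshold on measured values. They are 8 of the 18110 genes common to the 3 count files used. Cells came from male Mef2c-mTmG mice, a strain whose reporter marks cells by lineage, and live single cells were sorted on that lineage tracing before 10x Genomics 3' v3 capture. The SHF_Baseline library holds cells derived from the second heart field (SHF) of mice without infusion. The SHF_AngII library holds the same lineage after 3 days of infusion of angiotensin II (AngII), a peptide hormone that constricts vessels and raises blood pressure. The CNC_AngII library comes from mice infused in the same way and holds cells of the lineage labelled CNC, a name the labels do not spell out. The series text calls the cells outside the second heart field cells of other origins. A CNC_Baseline sample is named in the labels and was not analysed here. The age of the mice and how many were pooled are not given in the sources used here. Each group had 1 library, so no difference has a replicate check, no test was made, and every interval covers counting error only.

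Notch receptors are cut when a ligand on a neighbouring cell, such as Jag1, binds them, and the released intracellular part joins the DNA-binding protein RBPJ to switch on target genes. The Hes and Hey families, to which Hes1, Hey1, Hey2 and Heyl belong, encode transcriptional repressors and are the classic targets. In the vessel wall Notch3 is best known from smooth muscle cells and pericytes, Notch1 from endothelial cells, and Jag1 can itself be switched on by Notch, which passes the signal from cell to cell. In the GENCODE M21 annotation of mouse build GRCm38 (mm10, the build in the submitters' processing notes), Notch1 lies at chr2:26457903-26516663 on the minus strand and Notch2 at chr3:98013527-98150361 on the plus strand. Notch3 lies at chr17:32120820-32166852 and Jag1 at chr2:137081456-137116644, both on the minus strand. Among the targets, Heyl lies at chr4:123233556-123249875 and Hes1 at chr16:30064384-30067796, both on the plus strand. Hey1 lies at chr3:8663359-8667256 and Hey2 at chr10:30832359-30842801, both on the minus strand. Exons of Notch2 overlap those of Gm42820 on the same strand, and exons of Notch1 and Notch3 overlap annotated genes on the opposite strand only. Whether these overlaps alter the counts of Notch1, Notch2 or Notch3 was not tested.

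Because the members were read for shared behaviour, the 250 bases before the transcription start (RefSeq, GRCm38.p6) were searched for the core of the RBPJ recognition sequence, TGGGAA or its reverse complement TTCCCA. Of the 5 members with a promoter in the table (Notch1, Notch2, Notch3, Jag1 and Hey2), 1 held a match. The same letters occur in 21.6% of 32851 mouse promoters of that length. The match in Hey2 begins 207 bases before the start and ends 202 bases before it, and with the following base it reads TTCCCAC, the reverse complement of GTGGGAA, found in 5.42% of promoters. Hey2 and Notch3 are shown because both were higher in smooth muscle than in fibroblasts at baseline, and because 1 holds the letters in this window and the other does not. Both are written 5′ to 3′ along the gene's strand, with the match in capitals. The Hey2 window is chr10:30842784-30843033 and the Notch3 window is chr17:32166891-32167140, both on the minus strand. The RefSeq starts differ from the GENCODE gene positions given above. The Notch1 window, chr2:26503823-26504072, lies inside the GENCODE span of Notch1. Those of Notch2, Jag1 and Hey2 overlap the span of their gene in part, and that of Notch3 lies outside it.
Hey2: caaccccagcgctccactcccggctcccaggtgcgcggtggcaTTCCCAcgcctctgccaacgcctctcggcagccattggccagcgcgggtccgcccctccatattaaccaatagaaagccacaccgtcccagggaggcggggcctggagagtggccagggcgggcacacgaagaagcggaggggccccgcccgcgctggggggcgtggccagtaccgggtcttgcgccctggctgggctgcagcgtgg
Notch3: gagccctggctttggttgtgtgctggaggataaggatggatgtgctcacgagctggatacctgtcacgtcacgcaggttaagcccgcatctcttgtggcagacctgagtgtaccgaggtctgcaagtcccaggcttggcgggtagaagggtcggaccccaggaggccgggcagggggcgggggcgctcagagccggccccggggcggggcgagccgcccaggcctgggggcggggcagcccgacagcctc

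Smooth muscle cells were taken as cells with at least 5 UMIs (unique molecular identifiers, each standing for 1 captured transcript) of Myh11, the smooth muscle myosin heavy chain, and none of Pdgfra. Fibroblasts were taken as cells with at least 1 UMI of Pdgfra, a growth factor receptor of fibroblasts, and at most 2 of Myh11. The smooth muscle gate held 2259 cells in SHF_Baseline, 4649 in SHF_AngII and 6385 in CNC_AngII, and the fibroblast gate held 3939, 2640 and 842 cells. Median depth was between 12441 and 13450 UMIs in smooth muscle, and in fibroblasts it was 9534 in SHF_Baseline against 15485.5 and 12379.5 in the AngII libraries. Acta2, smooth muscle actin, stood at 29567 to 35630 CPM (counts of a gene summed over the gated cells, scaled to 1000000 UMIs of those cells) in the smooth muscle gate and at 584 to 1987 CPM in the fibroblast gate. All 8 smooth muscle markers were at least 1.5-fold higher in the smooth muscle gate and all 7 fibroblast markers at least 1.5-fold lower, in each library. The fibroblast gate rests on few UMIs, since 33.9% to 46.7% of its cells had exactly 1 UMI of Pdgfra. Cell barcodes shared by any pair of libraries numbered 29 to 34, at most 0.361% of a library.

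Jag1, Heyl, Notch2, Hey2, Notch3 and Hes1 were lower in smooth muscle cells of SHF_AngII than in those of SHF_Baseline, by 1.58-fold to 3.18-fold. These are the 6 members with a mean of at least 10 CPM over the pair of libraries, and all 6 were at least 1.5-fold lower. Over all 6999 genes that met the same minimum, 15.6% were at least 1.5-fold lower and 24.3% were past that fold in either direction. The median log2 ratio of the 6 members was -1.15, against -0.10 for all genes. Notch3 met the minimum only through its baseline value, and Notch1 and Hey1 lay below it. The median share of mitochondrial UMIs per cell differed between the same libraries, with 7.36% in smooth muscle of SHF_Baseline, 5.43% in SHF_AngII and 5.16% in CNC_AngII, and 4.09%, 2.82% and 2.75% in fibroblasts. Its part in the member values was not tested beyond the stricter cell filter, under which the same 6 genes were at least 1.5-fold lower, with 110 baseline cells left. The plot of levels shows each gene in each class and library.

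**Figure D1:**
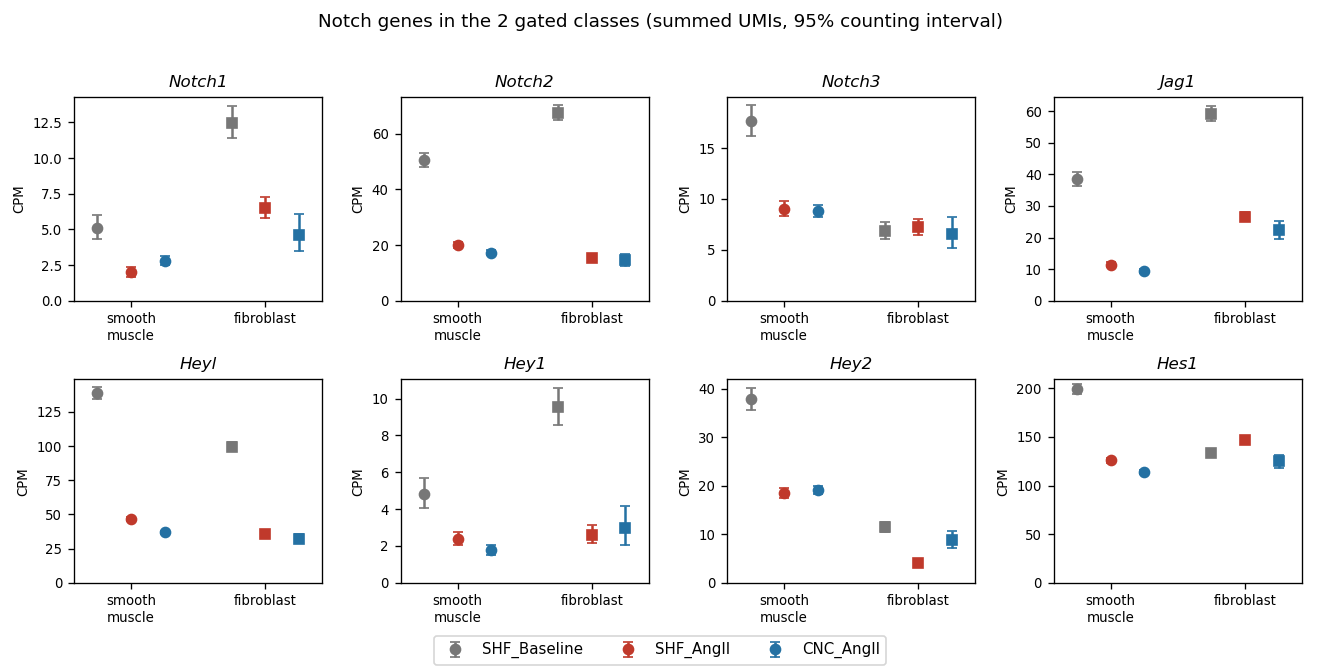
CPM of the 8 genes (vertical axes, each on its own scale from 0) in smooth muscle cells (circles) and fibroblasts (squares) of SHF_Baseline (grey), SHF_AngII (red) and CNC_AngII (blue); bars are 95% Poisson intervals of the summed UMIs. Baseline is the highest point in both classes for Notch1, Notch2, Jag1, Heyl, Hey1 and Hey2, whereas Notch3 and Hes1 show it in smooth muscle and not in fibroblasts.

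Among the receptors, Notch2 had 50.6 CPM in smooth muscle of SHF_Baseline (95% interval 48.1 to 53.3), 19.9 CPM in SHF_AngII (18.9 to 21.0) and 17.3 CPM in CNC_AngII (16.4 to 18.1). In fibroblasts it had 67.6, 15.5 and 14.5 CPM in the same order. Both baseline values thus lay above all 4 AngII values, with no overlap of the intervals. From baseline to AngII in the SHF lineage the log2 ratio, taken as log2((CPM + 1)/(CPM + 1)), was -1.30 in smooth muscle and -2.06 in fibroblasts. Notch2, a receptor of mesenchymal and smooth muscle cells, therefore had its larger difference in fibroblasts. The smooth muscle response minus the fibroblast response, without the pseudocount, was 0.78 (0.62 to 0.94). The order of the classes also turned: smooth muscle was below fibroblasts at baseline (log2 ratio -0.41) and above them in SHF_AngII (0.35), neither reaching 1.5-fold.

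Notch3, the receptor typical of mural cells, had 17.7 CPM in smooth muscle of SHF_Baseline (16.2 to 19.3), 9.04 CPM in SHF_AngII (8.35 to 9.77) and 8.83 CPM in CNC_AngII (8.25 to 9.45). In fibroblasts it had 6.86, 7.22 and 6.55 CPM, with intervals that all overlap. The baseline smooth muscle value stood alone above the other 5. The log2 ratio of SHF_AngII over SHF_Baseline was -0.90 in smooth muscle and 0.06 in fibroblasts, with an interval of -0.17 to 0.31 in the latter. The difference between the responses was -1.04 (-1.33 to -0.75). Smooth muscle exceeded fibroblasts by 2.38-fold at baseline and by 1.22-fold in SHF_AngII. The summed level of 5 pericyte markers in smooth muscle was 301 CPM in SHF_Baseline, 385 CPM in SHF_AngII and 447 CPM in CNC_AngII, most of it Cspg4 (169.8, 293 and 370.4 CPM). Rgs5 had the direction of Notch3, with 92.0, 60.8 and 27.7 CPM, and Higd1b was near 0. The part of pericyte RNA in the smooth muscle values of Notch3 was not tested. In the fibroblast gate the summed level of 8 smooth muscle markers was 1305 CPM at baseline and 4058 and 3950 CPM in SHF_AngII and CNC_AngII, and its part in the fibroblast values of Notch3 was not tested.

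Notch1, the endothelial receptor, was scarce in both classes. It had 5.11, 2.02 and 2.81 CPM in smooth muscle of SHF_Baseline, SHF_AngII and CNC_AngII, and 12.5, 6.50 and 4.63 CPM in fibroblasts. Fibroblasts thus held more than smooth muscle in each library, and baseline more than AngII in each class. Cells gated as endothelial (49, 29 and 30 cells) had 204, 120 and 130 CPM, and macrophages of CNC_AngII, gated on Ptprc and Csf1r (1380 cells), had 24.6 CPM. The summed level of 8 endothelial markers in the fibroblast gate was 64.3 CPM in SHF_Baseline, of which Pecam1 gave 45.7 CPM, against 14.5 and 19.4 CPM in SHF_AngII and CNC_AngII. Its part in the Notch1 values was not tested beyond leaving out cells with a UMI of Pecam1, Cdh5, Ptprc or Csf1r. That left 3226 fibroblasts of SHF_Baseline and 2218 of SHF_AngII. Over all alternative ways of processing, the fibroblast log2 ratio of SHF_AngII over SHF_Baseline for Notch1 ranged from -0.93 to -0.45.

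The ligand Jag1 had 59.3 CPM in fibroblasts of SHF_Baseline (56.8 to 61.8), 26.6 CPM in those of SHF_AngII (25.1 to 28.2) and 22.4 CPM in those of CNC_AngII (19.7 to 25.3). In smooth muscle it had 38.5, 11.4 and 9.49 CPM. The order from the highest down was baseline fibroblasts, baseline smooth muscle, AngII fibroblasts and AngII smooth muscle, and only the 2 AngII fibroblast values had overlapping intervals. Jag1 had the largest difference of any member in smooth muscle, a log2 ratio of -1.67 (interval of the plain ratio -1.89 to -1.62) or 3.18-fold lower. In fibroblasts it was -1.12, so the responses differed by -0.60 (-0.77 to -0.43). Jag1 was lower in smooth muscle than in fibroblasts by 1.52-fold at baseline, 2.22-fold in SHF_AngII and 2.23-fold in CNC_AngII.

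Heyl, a repressor of the Hey family, had 139 CPM in smooth muscle of SHF_Baseline (135 to 143), 46.5 CPM in SHF_AngII (44.9 to 48.2) and 37.0 CPM in CNC_AngII (35.8 to 38.2). In fibroblasts it had 99.7, 35.4 and 32.3 CPM. Both baseline values lay above all 4 AngII values. The log2 ratio of SHF_AngII over SHF_Baseline was -1.56 in smooth muscle and -1.47 in fibroblasts, and the interval of the difference between these responses, -0.19 to 0.02, held 0. Heyl UMIs were found in 75.6% of baseline smooth muscle cells, 43.6% of those of SHF_AngII and 37.9% of those of CNC_AngII. After each cell was thinned to 5000 UMIs the shares were 47.0%, 22.5% and 18.0%, against 0.296% of the macrophages of CNC_AngII, a cell type that should lack the gene. Median depths were 12441, 13336 and 13450 UMIs in smooth muscle and 11615.5 UMIs in those macrophages.

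Hey2, a repressor of the same family, had 37.8 CPM in smooth muscle of SHF_Baseline (35.7 to 40.1), 18.5 CPM in SHF_AngII (17.5 to 19.5) and 19.2 CPM in CNC_AngII (18.3 to 20.1). In fibroblasts it had 11.5, 4.10 and 8.82 CPM, from 434, 184 and 101 UMIs. All 3 smooth muscle values lay above all 3 fibroblast values, by 3.12-fold, 3.82-fold and 2.05-fold within SHF_Baseline, SHF_AngII and CNC_AngII. SHF_AngII over SHF_Baseline gave -0.99 in smooth muscle and -1.29 in fibroblasts, the latter with a mean below 10 CPM. Hey1, the third Hey gene, was rare, with 4.81, 2.39 and 1.78 CPM in smooth muscle and 9.55, 2.61 and 2.97 CPM in fibroblasts. Its baseline value was the highest in each class, and its AngII intervals overlapped within each class. In smooth muscle that overlap was slight, and the plain log2 ratio of CNC_AngII over SHF_AngII for Hey1 had an interval of -0.74 to -0.11.

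Hes1, a repressor that answers Notch and many other signals, was like Notch3 in not being lower in fibroblasts of SHF_AngII than in those of SHF_Baseline. It had 199 CPM in smooth muscle of SHF_Baseline (194 to 204), 126 CPM in SHF_AngII (123 to 128) and 114 CPM in CNC_AngII (112 to 116), and 133, 146 and 125 CPM in fibroblasts. In smooth muscle baseline was the highest value, and in fibroblasts SHF_AngII was. The log2 ratio of SHF_AngII over SHF_Baseline was -0.66 in smooth muscle and 0.14 (0.09 to 0.19) in fibroblasts, and the responses differed by -0.80 (-0.88 to -0.73). The most Hes1 UMIs in a single baseline smooth muscle cell were 36, against 11 for Heyl. In baseline fibroblasts the maxima were 41 and 20.

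In fibroblasts Notch2, Heyl and Jag1 were lower in SHF_AngII than in SHF_Baseline, by 4.17-fold, 2.76-fold and 2.18-fold. They are 3 of the 4 members with a mean of at least 10 CPM in this comparison, and Hes1 is the fourth. Over all 7692 genes tested there, 27.6% were at least 1.5-fold lower and 38.1% were past that fold either way. The median log2 ratio of all genes was -0.21. Under TMM scaling, which equalises the bulk of genes instead of the totals, the medians of all genes moved to 0.09 in smooth muscle and 0.07 in fibroblasts. The share of genes past 1.5-fold that were higher moved from 36.0% to 64.3% in smooth muscle and from 27.6% to 58.8% in fibroblasts. With that scaling Jag1 (-1.49), Heyl (-1.36), Notch2 (-1.12), Hey2 (-0.81) and Notch3 (-0.72) remained at least 1.5-fold lower in smooth muscle, whereas Hes1, at -0.47, did not. AngII, the annotation used to make the files (the baseline file lists fewer genes and older names) and the preparation of each library cannot be told apart in these comparisons.

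**Figure D2:**
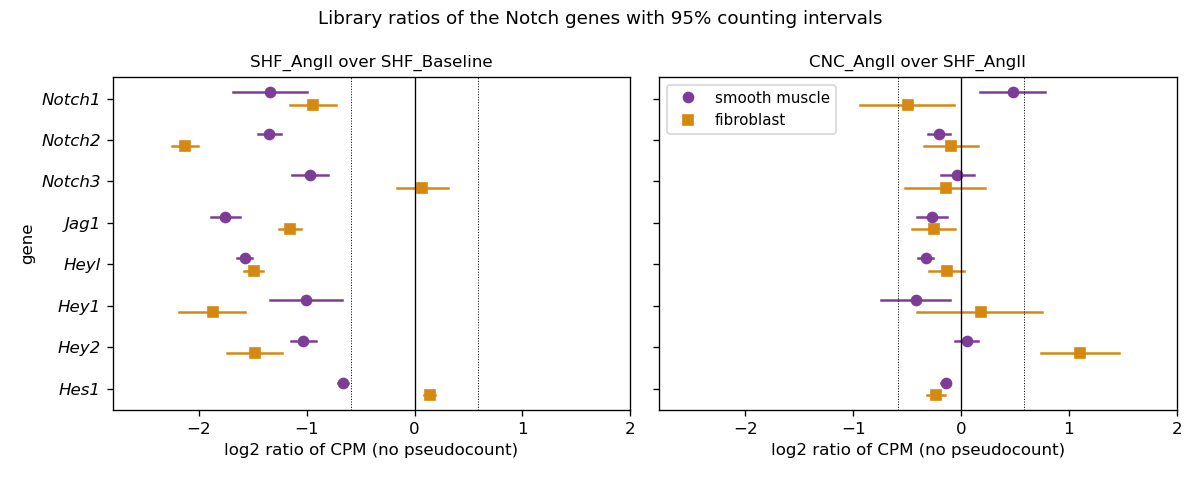
Log2 ratios of CPM without a pseudocount (horizontal axes) for the 8 genes in smooth muscle (purple circles) and fibroblasts (orange squares), with SHF_AngII over SHF_Baseline at left and CNC_AngII over SHF_AngII at right. Bars are 95% conditional binomial intervals and dotted lines mark 1.5-fold; at left Notch3 and Hes1 of fibroblasts lie at or above 0 and all other points lie to the left of the lower line, and at right Hey2 of fibroblasts is the only point past a line.

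Within each library the level of Hes1 differed with that of immediate early genes, which cells switch on within minutes of a stimulus. A list of 22 such genes (Fos, Jun, Egr1, Atf3 and others) took a median of 1.66% of the UMIs of a smooth muscle cell in SHF_Baseline, 0.969% in SHF_AngII and 0.877% in CNC_AngII. In fibroblasts the medians were 2.04%, 1.13% and 1.05%. In smooth muscle 15 of the 22 genes were at least 1.5-fold lower in SHF_AngII than in SHF_Baseline and 1 was higher, with a median log2 ratio of -0.78. In fibroblasts 17 of 21 were lower and 1 was higher, although Hes1 was not lower there. Within each library the smooth muscle cells were divided by that share into a lowest, a middle and a highest tertile. Hes1 stood at 66.4 CPM in the lowest tertile, 225 CPM in the middle and 294 CPM in the highest of SHF_Baseline. The corresponding values were 67.2, 140 and 168 CPM in SHF_AngII and 56.3, 134 and 149 CPM in CNC_AngII. Fibroblasts of SHF_Baseline had 69.3, 149 and 179 CPM and those of SHF_AngII 62.0, 166 and 209 CPM. The lowest tertile of all 6 sets of cells thus held 56.3 to 69.3 CPM of Hes1, below the middle and highest tertiles of its own set.

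In fibroblasts Heyl was also lowest in the lowest tertile, with 78.8, 105 and 115 CPM in SHF_Baseline and 28.2, 40.0 and 37.9 CPM in SHF_AngII. In smooth muscle, to which the values below belong, Heyl did not follow the share in that way. It had 156, 132 and 130 CPM over the tertiles of baseline smooth muscle and 45.5, 43.3 and 51.3 CPM over those of SHF_AngII, so that each baseline tertile lay above each AngII tertile. Notch3 had 21.9, 16.9 and 14.7 CPM at baseline and 10.8, 7.40 and 9.20 CPM in SHF_AngII, highest where the share was lowest. Jag1 had 44.2, 34.8 and 37.2 CPM at baseline and 10.9, 11.6 and 11.7 CPM in SHF_AngII. In a comparison added after seeing these values, only smooth muscle cells in the middle tertile of the pooled share were compared (456 cells of SHF_Baseline and 1846 of SHF_AngII). The log2 ratio of SHF_AngII over SHF_Baseline for Hes1 was then 0.33, with the direction reversed, and in fibroblasts selected in the same way it was 0.83. Among those smooth muscle cells Heyl gave -1.70, Jag1 -1.61, Notch2 -1.26, Hey2 -1.09 and Notch3 -1.08.

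**Figure D3:**
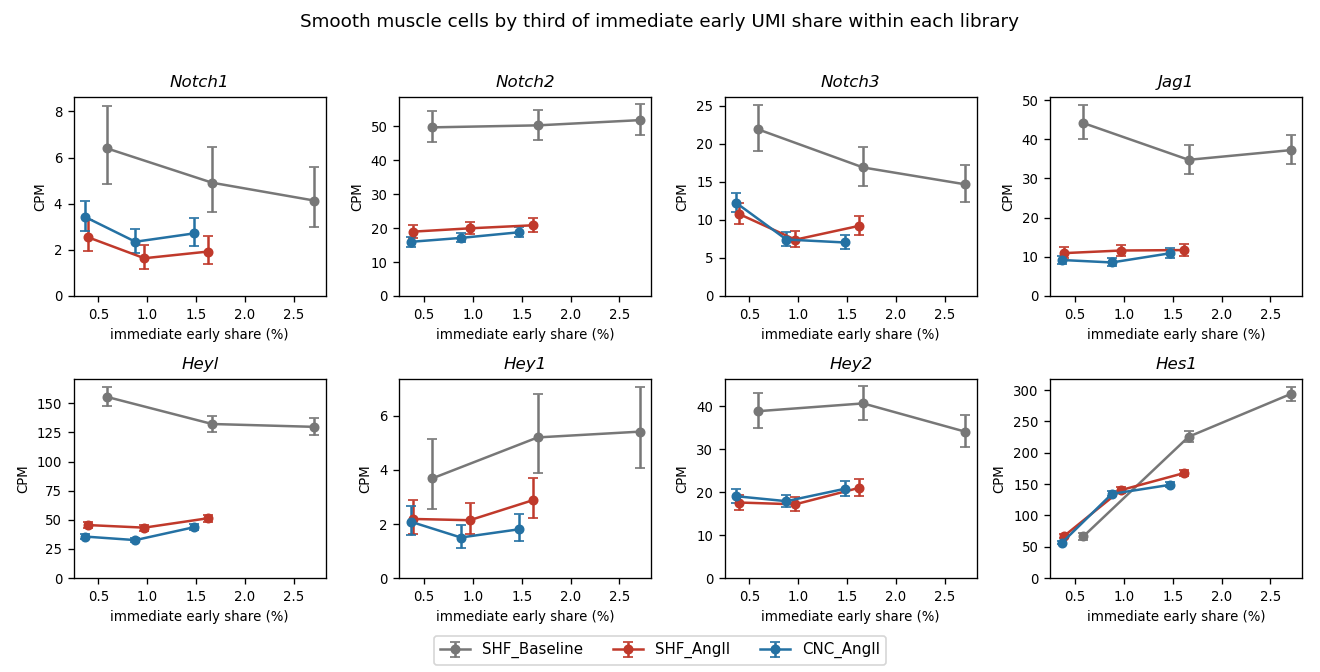
CPM of the 8 genes (vertical axes, each from 0) in smooth muscle cells divided into tertiles of the share of UMIs from immediate early genes (horizontal axes, median share of the tertile in percent), for SHF_Baseline (grey), SHF_AngII (red) and CNC_AngII (blue), with 95% Poisson intervals. Hes1 climbs with the share in all 3 libraries, from 66.4 to 294 CPM at baseline, whereas the baseline lines of Notch2, Jag1, Heyl and Hey2 lie above both AngII lines at every tertile.

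Between the lineages under AngII, no member with a mean of at least 10 CPM differed by 1.5-fold. In smooth muscle 0 of 5 did, where 1.94% of 6764 genes did, and in fibroblasts 0 of 4 did, where 2.31% of 7215 genes did. The smooth muscle log2 ratios of CNC_AngII over SHF_AngII were -0.32 for Heyl (-0.40 to -0.26), -0.24 for Jag1 (-0.41 to -0.13), -0.20 for Notch2 (-0.31 to -0.10), -0.14 for Hes1 (-0.18 to -0.10) and 0.05 for Hey2 (-0.05 to 0.16). The first 4 were thus lower in CNC_AngII beyond counting error, by 1.25-fold at most. In fibroblasts the ratios of Jag1, Hes1, Heyl and Notch2 were -0.24, -0.23, -0.13 and -0.09.

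The widest gap between the lineages was in fibroblast Hey2, with 4.10 CPM in SHF_AngII and 8.82 CPM in CNC_AngII, a log2 ratio of 0.95 (interval of the plain ratio 0.74 to 1.46). Its mean lay below 10 CPM, and the CNC_AngII value rests on 101 UMIs in 842 cells. Notch1 gave 0.34 in smooth muscle and -0.41 in fibroblasts, from 53 to 292 UMIs per value. In smooth muscle cells thinned to 5000 UMIs the Notch1 ratio was -0.08. The summed level of 7 macrophage markers in the smooth muscle gate was 297 CPM in CNC_AngII and 1.35 CPM in SHF_AngII. With all cells holding a UMI of Pecam1, Cdh5, Ptprc or Csf1r left out, the smooth muscle ratio of Notch1 was 0.31 and the fibroblast ratio of Hey2 was 0.87.

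**Figure D4:**
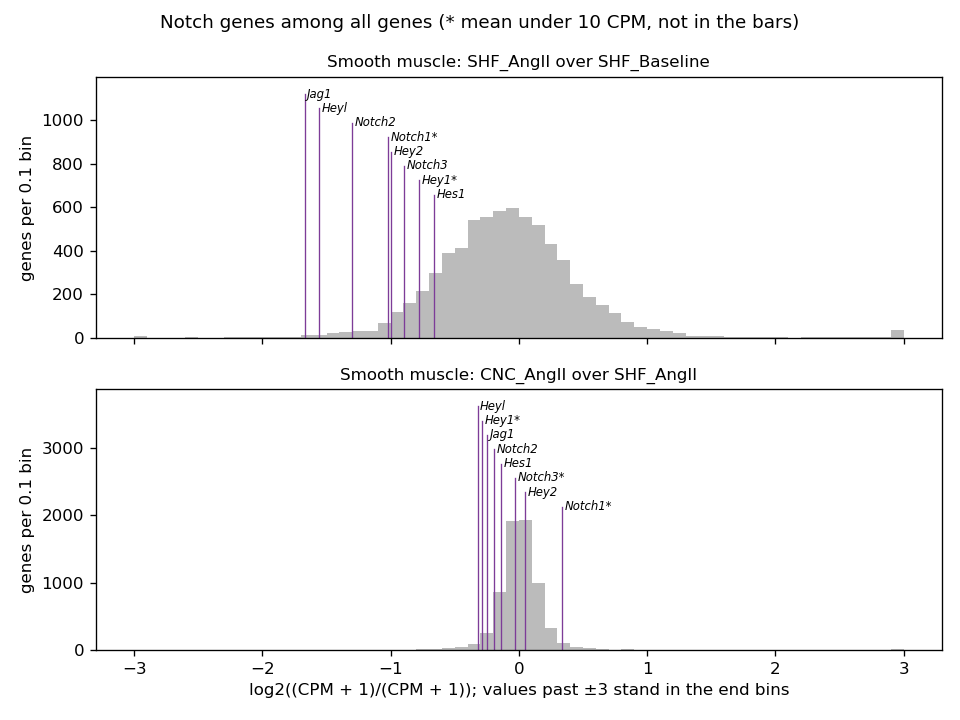
Number of genes per bin of 0.1 (vertical axes) by log2((CPM + 1)/(CPM + 1)) in smooth muscle (horizontal axis), for SHF_AngII over SHF_Baseline above and CNC_AngII over SHF_AngII below, with the 8 genes as labelled lines (line heights are arbitrary; an asterisk marks a mean under 10 CPM). In the upper panel the lines run from -1.67 for Jag1 to -0.66 for Hes1, left of the median of all genes at -0.10, and in the lower panel they run from -0.32 for Heyl to 0.34 for Notch1.

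Between the classes at baseline, Notch3 and Hey2 were higher in smooth muscle and Jag1 was lower, 3 of the 6 members with a mean of at least 10 CPM. Of all 7733 genes, 36.6% were past 1.5-fold, so that count is near what many genes show. Notch3 met the minimum there only through its smooth muscle value of 17.7 CPM, against 6.86 CPM in fibroblasts. Heyl and Hes1 were 1.39-fold and 1.49-fold higher in smooth muscle. In SHF_AngII Hey2 (higher) and Jag1 (lower) were past the fold among 5 members, where 37.9% of genes were, and the same genes were past it in CNC_AngII, where 36.6% were. In both AngII libraries Hey2 met the minimum only through its smooth muscle value, and in CNC_AngII Jag1 met it only through its fibroblast value. Hes1 was at 0.58 on the log2 scale at baseline, -0.22 in SHF_AngII and -0.13 in CNC_AngII. Under TMM scaling the share of genes past the fold that were higher in smooth muscle moved from 32.8% to 54.4% in SHF_Baseline, from 40.3% to 56.6% in SHF_AngII and from 40.7% to 57.9% in CNC_AngII. The baseline ratio of Jag1 was then -0.33, below the fold. Over all alternative ways of processing, the baseline log2 ratio ranged from 0.20 to 0.76 for Heyl and from 0.54 to 0.99 for Hes1. Both thus passed 1.5-fold (0.58) under some of them.

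Other genes of the pathway were read from a list of 54, of which 52 were in all files. In smooth muscle 27 of them had a mean of at least 10 CPM, and 9 of these were at least 1.5-fold lower in SHF_AngII than in SHF_Baseline, with none higher and a median log2 ratio of -0.50. Of all genes tested, 15.6% were that much lower, with a median of -0.10. Gucy1a1, the subunit of the nitric oxide receptor that Notch is known to control in smooth muscle, had 257 CPM at baseline, 123 CPM in SHF_AngII and 100.3 CPM in CNC_AngII. Its log2 ratio of -1.05 was the largest, followed by the coactivator Ep300 (-0.87), the receptor-cleaving protease Adam17 (-0.85), the coactivator Maml2 (-0.82), Dtx3 (-0.82) and the coactivator Maml1 (-0.81). Adam17 and Maml1 met the minimum only through their baseline values, with 8.19 and 7.41 CPM in SHF_AngII. Rbpj, the DNA-binding partner of all Notch receptors, had 47.4, 30.1 and 36.1 CPM in smooth muscle, a ratio of -0.64, and 82.4, 47.0 and 52.7 CPM in fibroblasts, a ratio of -0.80.

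In fibroblasts 30 genes of the list met the minimum, and 16 were lower in SHF_AngII and 0 higher, with a median of -0.62. Of all genes tested there, 27.6% were lower, with a median of -0.21. The largest ratios were those of Dtx4 (-1.53), the ubiquitin ligase Mib1 that activates ligands (-1.30), the ligand-like Dner (-1.27), Gucy1a1 (-1.16), the inhibitor Numb (-1.15) and Ep300 (-1.09). Dtx4, Dner and Numb met the minimum only through their baseline values, with 8.73, 8.89 and 9.80 CPM in SHF_AngII. The same held for Maml1, Aph1b and Fbxw7, which were also among the 16. Between the lineages under AngII, 0 of 25 genes differed in smooth muscle and 1 of 25 in fibroblasts, Gucy1a1, with 15.4 CPM in SHF_AngII and 31.4 CPM in CNC_AngII. Gucy1a1 and Hey2 were thus both higher in CNC_AngII fibroblasts, and both are higher in smooth muscle than in fibroblasts in each library. The summed level of 8 smooth muscle markers in fibroblasts was 3950 CPM in CNC_AngII and 4058 CPM in SHF_AngII. The part of smooth muscle RNA in these fibroblast values was not tested. Between the classes 11 of 31 genes of the list were lower in smooth muscle at baseline and 1 was higher, 7 and 2 of 24 in SHF_AngII, and 4 and 2 of 25 in CNC_AngII. At baseline and in SHF_AngII these counts are near the shares over all genes past the fold either way, 36.6% and 37.9%, and in CNC_AngII they are below the 36.6% there. Gucy1a1 was the higher gene in each, with log2 ratios of 2.81, 2.92 and 1.64, joined by Hes6 in CNC_AngII (0.66) and SHF_AngII. Of the genes for proteins that cut or modify the receptor, those with the largest ratios were lower in each library, with -1.44, -1.41 and -1.17 for Ncstn, a subunit of gamma-secretase, -1.20, -1.19 and -1.11 for Adam17, and -1.19, -0.67 and -0.62 for the fucosyltransferase Pofut1. Others were not, such as Poglut1, with 22.6 CPM in smooth muscle and 21.6 CPM in fibroblasts at baseline, and Furin, with 34.4 and 25.5 CPM. Numbl was also lower in SHF_AngII (-0.78). At baseline Dner had 3 UMIs in smooth muscle and 867 in fibroblasts, a plain log2 ratio with an interval of -10.10 to -6.26, and Dtx4 gave -3.42. Dner and Dtx4 at baseline, and Adam17 in both AngII libraries, met the minimum only through their fibroblast values. The ligand gene Dll4 was at 0 UMIs in baseline smooth muscle, which allows up to 0.102 CPM. In the endothelial gate it had 9.37, 9.71 and 26.0 CPM in SHF_Baseline, SHF_AngII and CNC_AngII. Those values rest on a few UMIs in 49, 29 and 30 cells, and 9.71 CPM in SHF_AngII is 3 UMIs.

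Within the classes the members varied with genes that divide them. Smooth muscle cells with a UMI of Igfbp2, a binding protein of insulin-like growth factors, had less Jag1 than cells without one at baseline, with 24.6 CPM in 536 cells against 43.8 CPM in 1723 cells. The log2 ratio was -0.81 there, -0.40 in SHF_AngII and -0.28 in CNC_AngII. Heyl had its largest such ratio in SHF_AngII, with 41.0 against 61.9 CPM (-0.58). Smooth muscle cells with at least 5 UMIs of Spp1, osteopontin, under AngII had less Heyl than cells with none, with 32.2 against 48.2 CPM in SHF_AngII and 25.8 against 39.7 CPM in CNC_AngII. Notch3 was lower in the same cells, with 4.60 against 9.70 CPM and 5.31 against 9.59 CPM, whereas Hes1 was not (129 against 124 CPM and 123 against 111 CPM). The Spp1 cells were deeper, with a median of 23126 against 12700.5 UMIs in SHF_AngII. The Igfbp2 cells were deeper there too, with 14707.5 against 10419 UMIs.

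Fibroblasts without a UMI of Pi16, a marker of adventitial fibroblasts, had a higher Notch3 level than those with one in each library. Cells with Pi16 had 4.20 CPM of Notch3 and cells without it 24.1 CPM in SHF_Baseline, 6.05 and 20.7 CPM in SHF_AngII, and 5.89 and 11.2 CPM in CNC_AngII. At baseline Notch1 (10.4 against 25.6 CPM), Hey1 (7.13 against 25.2 CPM) and Hes1 (121 against 210 CPM) had the same direction, and Heyl was nearly level (99.2 against 103 CPM). Fibroblasts with a UMI of Cthrc1, a gene of activated fibroblasts, had less Heyl than those without one, with 54.4 against 108 CPM in SHF_Baseline, 28.1 against 56.6 CPM in SHF_AngII and 27.0 against 43.3 CPM in CNC_AngII. Hes1 in the same split was lower with Cthrc1 at baseline (109 against 138 CPM) and higher in SHF_AngII (155 against 122 CPM). In SHF_AngII the cells with Cthrc1 were deeper, with a median of 19231 against 10656.5 UMIs. Cells with Pi16 were also deeper there, with 15880 against 10981 UMIs.

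The genes whose pattern over the 6 sets of cells (3 libraries, 2 classes) was most like a member's were found by the root mean square distance of centred log2 values among 8868 genes. The nearest to Hes1 were Foxp4 (distance 0.077) and Pdzrn3 (0.092), to Heyl Zfp395 and Dcun1d1 (0.13 each), and to Jag1 Rbms3 and Zfp36l1 (0.18 each). Those nearest to Notch2 were Zscan26 (0.11) and Trp53inp1 (0.13), to Notch3 Gpsm2 (0.11) and Tcea3 (0.12), and to Notch1 Ppp3ca (0.10) and Usp37 (0.14). Hey1 was nearest to Gm37494 (0.090) and Colec12 (0.11), and Hey2 to Btg1 (0.15) and Cacna1d (0.19). Among the members themselves the closest pair was Heyl and Notch2 (0.26), and Notch3 and Hes1 followed (0.29). The 6 sets share 3 libraries and their depth, and the distances carry no test.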

How the data were processed

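The authors deposited raw UMI counts per gene and cell, with no normalisation. The submitters' processing notes name fastp, STAR 2.5, HTSeq 0.6.1 and build mm10. The totals were 92474476, 147854476 and 150954701 UMIs in 9412, 11166 and 11098 barcodes of SHF_Baseline, SHF_AngII and CNC_AngII. Genes were joined by name, 516 of them through a synonym. Cells below 500 genes or above 10% mitochondrial UMIs were dropped, and doublets marked by Scrublet (scanpy 1.11.5) were left out (207, 192 and 279 cells), leaving 8374, 9299 and 10194 cells.

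UMIs were summed per gated class and library. Intervals at 95% are exact Poisson for CPM, conditional binomial for ratios without a pseudocount, and Clopper-Pearson for shares. A ratio was called past 1.5-fold only with a mean of at least 10 CPM, and printed log2 ratios have a pseudocount of 1 CPM, which draws those of low genes toward 0 and can put them outside the interval of the plain ratio. Differences between responses are plain ratios. A count of 0 allows up to 3 UMIs. TMM factors came from edgeR 4.0.16. Thinning to 5000 UMIs kept 2214, 4590 and 6303 smooth muscle cells and 3222, 2504 and 769 fibroblasts, and 1352 macrophages of CNC_AngII. The calling step was tested on simulated data.

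All 8 members are reported. Of the wider list, the 6 largest ratios past the fold in each comparison are named, with Rbpj and Dll4, except 1 gene that is not reported here. For each member the 2 nearest patterns are named. The members, lists and dividing genes were chosen with earlier results of these data known. Alternatives were other totals and scalings, pooling by cell, thinning, 2 other pseudocounts, other cell filters and gates, and corrections for other cells and free RNA.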

Additional observations from a re-analysis of the deposited data

Results flagged for a closer look

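Hes1 had opposite directions in the classes of the SHF lineage, with a log2 ratio of SHF_AngII over SHF_Baseline of -0.66 in smooth muscle and 0.14 in fibroblasts. With 1 library per group the difference was not tested. The share of UMIs from immediate early genes was lower under AngII in both classes, and among cells in the middle tertile of that share Hes1 gave 0.33 in smooth muscle and 0.83 in fibroblasts.

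Notch1 had opposite directions between the lineages under AngII, with a log2 ratio of CNC_AngII over SHF_AngII of 0.34 in smooth muscle and -0.41 in fibroblasts. The difference was not tested. Both values have a mean under 10 CPM.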

How the results depend on the processing

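Of 784 log2 ratios of members under the alternatives, 656 moved by no more than their counting error, 127 moved by more, and 1 ratio past 1.5-fold reversed, that of Hes1 between SHF_AngII and SHF_Baseline in smooth muscle, to 0.33 in the middle tertile of the immediate early share. The count of members past 1.5-fold in smooth muscle between these libraries was 5 to 8 over all alternatives, against 6. In fibroblasts it moved from 3 to 6 without a minimum CPM and to 5 in the middle tertile, and between the lineages from 0 to 1 (Hey2) without the minimum. Between the classes it moved from 3 to 5 at baseline without the minimum, and from 2 to 1 in SHF_AngII when cells below 2000 genes or above 5% mitochondrial UMIs were dropped. That filter left 110 of 2259 smooth muscle cells of SHF_Baseline. Over all alternatives Heyl between SHF_AngII and SHF_Baseline ranged from -1.70 to -1.35 in smooth muscle and from -1.61 to -1.11 in fibroblasts, Jag1 from -2.18 to -1.18 and from -1.23 to -0.85, and Notch2 from -1.60 to -1.02 and from -2.17 to -1.61. Notch3 ranged from -1.53 to -0.54 in smooth muscle. Except as named, the cause of these shifts was not tested. Notch1 and Hey1, with 34 to 473 UMIs per value, are limited by depth. No paired analysis was possible because each group has 1 library, and none could be left out.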

Other observations

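Cells just outside the smooth muscle gate of SHF_Baseline, with 3 or 4 UMIs of Myh11 and none of Pdgfra, held 123 CPM of Notch3 and 182 CPM of Heyl, although they numbered only 36. Cells just inside it, with 5 to 9 UMIs of Myh11, held 26.6 and 132 CPM (130 cells). Under AngII the corresponding Notch3 values were 8.13 and 10.5 CPM in SHF_AngII (77 and 370 cells) and 9.63 and 7.83 CPM in CNC_AngII (91 and 471 cells). Hey2 stood at 11.9 CPM outside the gate and 32.8 CPM inside it at baseline. The value outside rests on very few UMIs in the 36 cells, and no interval was computed, so a difference cannot be read from it. Fibroblasts with exactly 1 UMI of Pdgfra and those with 2 or more had 90.5 and 103 CPM of Heyl at baseline, and 43.4 and 31.5 CPM in SHF_AngII. Cells without Pdgfra and with at most 2 UMIs of Myh11, which belong to neither class, had 76.6 and 48.9 CPM in the same libraries.

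The members were also read in the macrophage and endothelial gates. Macrophages of CNC_AngII had 24.9 CPM of Notch2, 13.3 CPM of Hes1, 4.54 CPM of Jag1 and 0 UMIs of Notch3 in 1380 cells, which allows a share of cells with a UMI of up to 0.217%. The endothelial gates held 84.3, 123 and 57.3 CPM of Jag1 and 56.2, 48.5 and 52.1 CPM of Hey2 in SHF_Baseline, SHF_AngII and CNC_AngII, from at most 49 cells each. In SHF_AngII, 24 of the 38 Jag1 UMIs of that gate came from 1 cell. Within cells thinned to 5000 UMIs, the phi coefficient between the detection of 1 member and another, over 28 pairs and 3 libraries, lay between -0.03 and 0.06 in smooth muscle and between -0.04 and 0.12 in fibroblasts.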
